A study of Mus musculus with 4 samples.

Results

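A set of 8 enzymes that conjugate, reduce or inactivate steroids was followed in primary mouse Leydig cells, the androgen-producing cells of the testis, after a small interfering RNA (siRNA) against Trps1. The genes were Sult1e1, Srd5a1, Srd5a3, Akr1c14, Akr1c18, Hsd17b10, Hsd17b11 and Hsd17b12, taken by symbol, and all 8 had a row among the 55812 rows of the deposited count table. Of these, 7 passed the filter on low counts that left 14701 genes, and Akr1c18 did not. RNA sequencing covered 2 samples that received Trps1 siRNA and 2 that received Negative siRNA, a control siRNA. Both groups were primary Leydig cells labelled as coming from 6-month-old mice. The labels state no mouse strain, siRNA dose or time to harvest. They also do not say whether replicate samples were independent cultures or animals, so the p-values describe variation among 4 samples that may be technical.

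Steroid hormones are switched off in cells mainly by conjugation and by reduction or oxidation of the steroid. Estrogen sulfotransferase, encoded by Sult1e1, adds sulfate from the donor PAPS to the phenolic hydroxyl of estrogens, and the sulfated product does not activate the estrogen receptor. In the mouse the enzyme is known for its abundance in Leydig cells. The 5-alpha reductases and the aldo-keto reductases of the 1C family saturate the steroid ring and reduce its keto groups in turn, which turns testosterone into dihydrotestosterone and then into androstanediol, the route used by immature Leydig cells. The 17-beta hydroxysteroid dehydrogenases act on the steroid at carbon 17, and several of them have their main known task in lipid metabolism.

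The libraries held 17844125 and 21597187 counted reads with Trps1 siRNA and 20116799 and 25852898 with Negative siRNA. The targeted gene, Trps1, which encodes a GATA-type zinc finger repressor, had 23.5 and 30.1 CPM (read counts scaled to a common library size, with TMM) with Trps1 siRNA, against 38.1 and 42.2 CPM with Negative siRNA. All 8 Leydig cell markers examined were detected, and their summed level was 6035 and 6477 CPM with Trps1 siRNA against 4054 and 4337 CPM with Negative siRNA. Of these 8, 6 rose and none fell, and Cyp11a1, with a mean of 3536 CPM with Trps1 siRNA against 2513 CPM with Negative siRNA, was the largest part of the sum. Star (0.938-fold) and Insl3 (1.01-fold) did not pass the test. Of 12 macrophage markers 8 fell and none rose, with sums of 2594 and 2044 CPM with Trps1 siRNA against 3067 and 2980 CPM with Negative siRNA. Markers of peritubular myoid and smooth muscle cells, of which 2 of 4 tested fell, summed to 59.0 and 62.8 CPM with Trps1 siRNA against 94.1 and 95.1 CPM with Negative siRNA, with none higher. Sertoli cell markers summed to 38.7 and 36.4 CPM with Trps1 siRNA against 32.4 and 33.8 CPM with Negative siRNA, with Fshr at 0. Gata1 was the largest part, at 22.0 and 21.8 CPM with Trps1 siRNA against 15.6 and 17.3 CPM with Negative siRNA. Gata1 was also the 1 of 3 tested that was called higher (1.33-fold, edgeR adjusted p = 0.0154). That call was lost with DESeq2 (0.0612), without sample 1 (0.0567) or 2 (0.0948) of Trps1 siRNA and without sample 1 of Negative siRNA (0.120), in a range from 0.00583. Germ cell markers summed to 37.1 and 48.6 CPM with Trps1 siRNA against 35.5 and 32.7 CPM with Negative siRNA, with Tnp1 at 0. Nearly all of that sum was Zbtb16, at 35.6 and 46.1 CPM with Trps1 siRNA against 34.2 and 31.5 CPM with Negative siRNA. Zbtb16 was also the 1 of 2 tested that was called higher (log2 fold change 0.32, edgeR adjusted p = 0.0423). That call was lost with DESeq2 (0.128), limma voom (0.0615), without robust estimation (0.0628), and when sample 2 of Trps1 siRNA (log2 fold change 0.12, adjusted p = 0.636) or sample 2 of Negative siRNA (0.147) was left out, in a range from 9.74e-04. The 7 endothelial markers had edgeR adjusted p-values of 0.137 or more and summed to 39.5 and 39.2 CPM with Trps1 siRNA against 43.2 and 35.6 CPM with Negative siRNA. In RNA from a whole culture, fewer or more cells of a type and less or more RNA per cell cannot be told apart. The part of the Leydig cell share and of these other cells in the results below, rises and falls alike, was not tested. Of the Leydig cell markers, Star, Cyp11a1, Hsd3b1, Cyp17a1 and Hsd17b3 are also on the list of androgen synthesis enzymes below, so the results of these lists are not independent.

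With Trps1 siRNA, 2 of the 7 tested enzymes rose, 1 fell and 4 were not called (edgeR, adjusted p under 0.05 over all genes). Sult1e1 rose 2.37-fold and Hsd17b12 rose 1.18-fold, while Akr1c14 fell to 80.0% of its control level. Over all tested genes 11.2% were called, 5.24% higher and 6.00% lower. The groups did not overlap for 5 of the 7 enzymes, namely the 3 called and also Srd5a3 and Hsd17b11, against 52.2% of all tested genes. The median log2 fold change of the 7 was 0.06, beside 0.00 for all genes. The enzymes thus ranged from one of the strongest changes in the table, Sult1e1 with rank 7 of 14701 by p, to several that moved little.

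**Figure D1:**
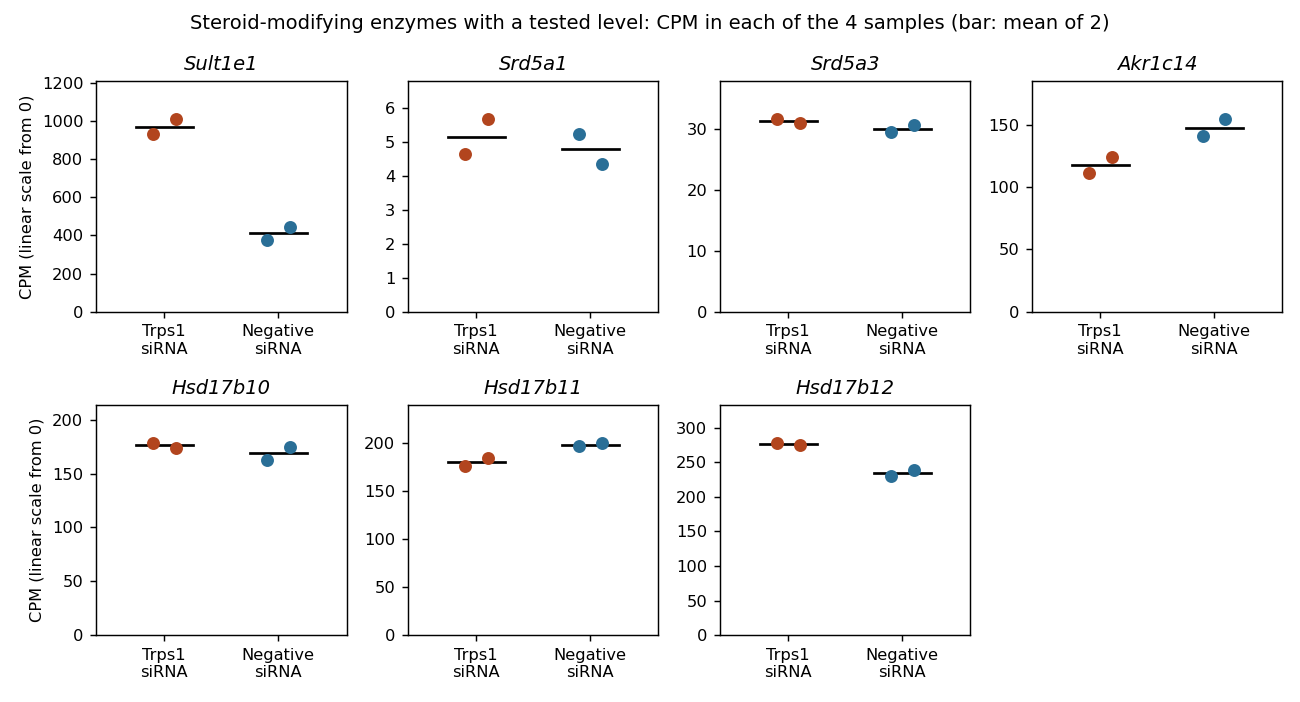
CPM of the 7 tested enzymes in each of the 4 samples, with Trps1 siRNA on the left and Negative siRNA on the right of each panel, points for samples, bars for the mean of 2, and each axis starting at 0. Sult1e1 stood at 933 and 1008 CPM with Trps1 siRNA against 375 and 445 CPM with Negative siRNA, and the Srd5a1 and Hsd17b10 samples of the groups overlapped.

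The 3 enzymes that passed the test are encoded on chromosomes 5, 13 and 2. Their RefSeq promoters on GRCm38.p6, from 250 bases before to 50 bases after the annotated start, are shown because Trps1 binds GATA sites and because Nr5a1, the nuclear receptor that drives steroidogenic genes, binds AAGGTCA. Sult1e1 lies at chr5:87591562-87591861, minus strand, Akr1c14 at chr13:4059341-4059640, plus strand, and Hsd17b12 at chr2:94157860-94158159, minus strand. All are written 5′ to 3′ on the gene's strand, and capitals mark matches to the motifs searched, which only Sult1e1 holds.
Sult1e1: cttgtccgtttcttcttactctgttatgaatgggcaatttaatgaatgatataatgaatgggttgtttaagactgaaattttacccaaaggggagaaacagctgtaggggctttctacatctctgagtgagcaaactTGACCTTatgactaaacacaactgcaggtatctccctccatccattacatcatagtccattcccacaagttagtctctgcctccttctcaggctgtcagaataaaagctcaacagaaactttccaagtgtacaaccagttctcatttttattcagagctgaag
Akr1c14: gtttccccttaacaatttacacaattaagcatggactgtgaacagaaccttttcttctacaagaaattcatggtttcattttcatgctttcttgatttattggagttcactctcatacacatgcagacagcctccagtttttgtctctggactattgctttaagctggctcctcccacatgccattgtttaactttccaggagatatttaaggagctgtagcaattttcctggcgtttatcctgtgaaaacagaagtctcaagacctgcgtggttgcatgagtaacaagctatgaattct
Hsd17b12: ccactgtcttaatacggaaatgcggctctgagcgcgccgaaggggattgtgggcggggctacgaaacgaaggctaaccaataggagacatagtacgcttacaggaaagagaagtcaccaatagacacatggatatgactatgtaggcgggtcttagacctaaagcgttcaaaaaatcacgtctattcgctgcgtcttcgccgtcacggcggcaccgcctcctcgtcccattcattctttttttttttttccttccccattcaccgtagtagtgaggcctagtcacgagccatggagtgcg

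The capitals in Sult1e1 are AAGGTCA read on the opposite strand, at positions -113 to -107 from the start, and 4.72% of 32851 mouse promoters of this length hold that motif on either strand. The GATA motif was searched on both strands as AGATAA or AGATAG, and also as TGATAA or as TGATAG, and 29.8% of the promoters hold at least 1 of these. It occurred in none of the promoters of the 3 enzymes that changed. Among all 8 enzymes, each with 1 promoter in the table, it occurred for Hsd17b10 at -134 to -129 and for Hsd17b11 at -208 to -203, neither of which passed the test. A match is a run of letters and not a measured binding site. The Akr1c14 promoter lies inside the bounds of the gene in the GENCODE annotation, which begins further upstream.

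Sult1e1 (ENSMUSG00000029272) is a protein-coding gene on the minus strand of chromosome 5 at 87575969 to 87591594 (GRCm38, as for all genes below). It had 16665 and 21902 reads with Trps1 siRNA and 7545 and 11396 with Negative siRNA. Its level was 933 and 1008 CPM with Trps1 siRNA, against 375 and 445 CPM with Negative siRNA. Both Trps1 siRNA samples stood far above both controls, and the gap between the groups was larger than the spread inside either. The mean was 971 ± 52.5 CPM against 410 ± 49.4 CPM (SD, n = 2 per group). The log2 fold change was 1.24 ± 0.07 (standard error; edgeR adjusted p = 4.34e-11), with a 95% interval of 2.13-fold to 2.62-fold. Among the 770 genes that rose, 49 had a larger log2 fold change, and the median rise was 1.29-fold. In the authors' deposited table Sult1e1 has a log2 fold change of 1.24 and an adjusted p of 8.62e-26.

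Per length, Sult1e1 was also the highest of the 8 enzymes in every sample. It had 752 and 811 CPM per kilobase of exon with Trps1 siRNA and 302 and 358 with Negative siRNA. Among 14425 tested genes with an annotated length this placed it at rank 46 and 36 with Trps1 siRNA and at rank 152 and 132 with Negative siRNA. Sult1e1 carried nearly all reads of the cytosolic sulfotransferase family. Of the reads on 21 annotated sulfotransferase genes it took 97.8% and 98.5% with Trps1 siRNA (95% Wilson intervals 97.5% to 98.0% and 98.3% to 98.7%). With Negative siRNA it took 94.0% and 95.5% (93.5% to 94.5% and 95.1% to 95.9%). Such intervals cover counting error only.

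The other sulfotransferases were low or absent. Sult1a1, the phenol sulfotransferase, came next by reads, with 17.1 and 11.7 CPM with Trps1 siRNA against 20.3 and 16.2 CPM with Negative siRNA, ranges that overlap. Its log2 fold change of -0.34 ± 0.16 did not pass the test (edgeR adjusted p = 0.197), but it did with the replicate number as a block (0.0338), without sample 1 of Trps1 siRNA (0.0101) and without sample 2 of Negative siRNA (0.0137), in a range of 0.0101 to 0.849 over the alternatives. Sult1d1 and Sult1b1 lie beside Sult1e1 on chromosome 5, at 87554645 to 87569027 and 87513339 to 87538195. Sult1d1 had 8 and 3 reads with Trps1 siRNA and 0 and 1 with Negative siRNA, and Sult1b1 had 1 read in all. Neither reached the filter on low counts, so in this cluster Sult1e1 was the only gene with a tested level.

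Sulfate conjugation also needs the donor PAPS and its transport. Of 15 listed genes for sulfate donor synthesis, transport, other sulfotransferases and desulfation, 14 were matched to a row. Sts, the steroid sulfatase, was not, so no sulfatase on the list was tested. Of these 14, 10 were tested, with 2 at an unadjusted edgeR p under 0.05 and a median log2 fold change of 0.00. None was called by edgeR, DESeq2 or limma voom. The same count was 1 lower gene with the replicate number as a block, 2 without sample 1 of Trps1 siRNA and 1 without sample 2 of Negative siRNA. Papss1, which makes PAPS, had a mean of 118 ± 3.86 CPM with Trps1 siRNA and 108 ± 0.49 CPM with Negative siRNA (SD, n = 2 per group), a log2 fold change of 0.12 ± 0.06 (edgeR adjusted p = 0.192). For glucuronidation and methylation, the other routes of conjugation, 5 of 18 listed genes were tested and none was called by edgeR, DESeq2 or limma voom, with 1 at an unadjusted p under 0.05. The 7 Ugt2b genes listed had at most 1 read in all samples together. Ugt1a7c stood at 56.8 CPM with Trps1 siRNA and 53.2 CPM with Negative siRNA and did not pass the test. The listed Ugt1a genes overlap on chromosome 1 and end between 88218997 and 88220002, which leaves the assignment of their reads uncertain.

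Both 5-alpha reductases of the set did not pass the test, and per length they were the lowest of the 7 tested enzymes. Among 14425 tested genes with an annotated length, Srd5a3 ranked 5894 to 6082 over the 4 samples and Srd5a1 ranked 9765 to 10449. Srd5a1 (ENSMUSG00000021594, chromosome 13, 69573449 to 69611442, minus strand), the type 1 enzyme that makes dihydrotestosterone, had 83 and 123 reads in the Trps1 siRNA libraries, a level of 4.65 and 5.66 CPM. The Negative siRNA libraries had 105 and 111 reads, a level of 5.22 and 4.34 CPM. The 4 values interleave. The log2 fold change of 0.12 ± 0.20 (edgeR adjusted p = 0.771) has a 95% interval of -0.28 to 0.53, a range of changes not excluded at this depth. It was -0.04 without sample 2 of Trps1 siRNA and -0.01 without sample 2 of Negative siRNA. An annotated gene on the same strand, Gm17108, shares 476 exon bases with Srd5a1 and held 1 read. Srd5a2, the type 2 enzyme, had 14 and 23 reads with Trps1 siRNA and 14 in each control.

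Srd5a3 (ENSMUSG00000029233, chromosome 5, 76140271 to 76155504, plus strand) encodes a reductase needed to make dolichol for protein glycosylation. It had 31.5 and 30.8 CPM with Trps1 siRNA, against 29.4 and 30.5 CPM with Negative siRNA. The groups stand side by side with hardly a gap between them. The log2 fold change was 0.06 ± 0.09 (edgeR adjusted p = 0.769), with a 95% interval of -0.12 to 0.24. Its partners in dolichol synthesis and use gave 2 genes that fell, none that rose and 7 that did not pass the test, of 9 tested, with a median log2 fold change of -0.09. Nus1, a subunit of the prenyltransferase upstream of Srd5a3, fell to 83.1% (edgeR adjusted p = 0.00615, but 0.126 without sample 1 of Negative siRNA, the highest of its alternatives, which began at 2.26e-04). Dpm3, a subunit of dolichol phosphate mannose synthase, fell to 80.7% (adjusted p = 0.0278), a call lost with DESeq2 (0.116) and without sample 2 of Trps1 siRNA (0.358) or sample 1 (0.0524) or 2 (0.104) of Negative siRNA, in a range of 0.00458 to 0.358.

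Akr1c14 (ENSMUSG00000033715, protein coding, chromosome 13, 4049011 to 4090688, plus strand) encodes a 3-alpha hydroxysteroid dehydrogenase, which reduces dihydrotestosterone to androstanediol. It had 1990 and 2701 reads with Trps1 siRNA, or 111 and 124 CPM, against 2829 and 3945 reads with Negative siRNA, or 141 and 154 CPM. Both Trps1 siRNA samples lay below both controls. The log2 fold change was -0.32 ± 0.06 (edgeR adjusted p = 9.63e-04), with a 95% interval of -0.45 to -0.19. All 12 alternatives kept the call, with adjusted p-values up to 0.0325. In the authors' deposited table its log2 fold change is -0.32 with an adjusted p of 0.0492, close to 0.0498, the largest in that table of 780 genes. The summed macrophage markers were also lower in both Trps1 siRNA samples, at 2594 and 2044 CPM against 3067 and 2980 CPM with Negative siRNA, and their part in the lower Akr1c14 level was not tested.

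Akr1c18 (ENSMUSG00000021214, chromosome 13, 4132615 to 4150654, minus strand), the 20-alpha hydroxysteroid dehydrogenase that inactivates progesterone and is known from the mouse ovary, was close to absent. It had 0 reads in both Trps1 siRNA samples, and 0 and 2 reads with Negative siRNA. A count of 0 allows up to 3 reads, or 0.168 and 0.138 CPM in the Trps1 siRNA libraries and 0.149 CPM in the control library without reads. No fold change is given, since both groups lie under that limit.

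Akr1c14 and Akr1c18 belong to a cluster of 8 Akr1c genes on chromosome 13, between 4049011 and 4586541. In that cluster only Akr1c14, Akr1c13 and Akr1c12 passed the filter on low counts. Akr1c13, 100462 bases from Akr1c14, had 11.5 and 10.1 CPM with Trps1 siRNA and 9.55 and 10.1 CPM with Negative siRNA, and its log2 fold change of 0.13 ± 0.14 did not pass the test (edgeR adjusted p = 0.640). Akr1c12 and Akr1c13 share 28.6% and 24.2% of their 50-base transcript words with each other, which leaves the assignment of their reads uncertain. For Akr1c14 that share was 5.80%, with the pseudogene Gm18857, which held no read. On chromosome 1 lies Akr1cl (65012689 to 65032759), the family member with the most reads here. It had 2221 and 2109 CPM with Trps1 siRNA, against 1874 and 1787 CPM with Negative siRNA, and rose 1.18-fold (edgeR adjusted p = 0.00565, but 0.155 without sample 2 of Negative siRNA, the highest in a range that began at 8.11e-05). A processed pseudogene on the opposite strand, Gm8550, shares 11.7% of the Akr1cl exon length and held 34 to 70 reads per sample. The family was therefore divided, with Akr1cl higher and Akr1c14 lower. The share of family reads on Akr1c14 was 4.75% and 5.54% with Trps1 siRNA (95% Wilson intervals 4.55% to 4.96% and 5.34% to 5.74%) and 6.95% and 7.90% with Negative siRNA (6.71% to 7.20% and 7.66% to 8.14%).

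**Figure D2:**
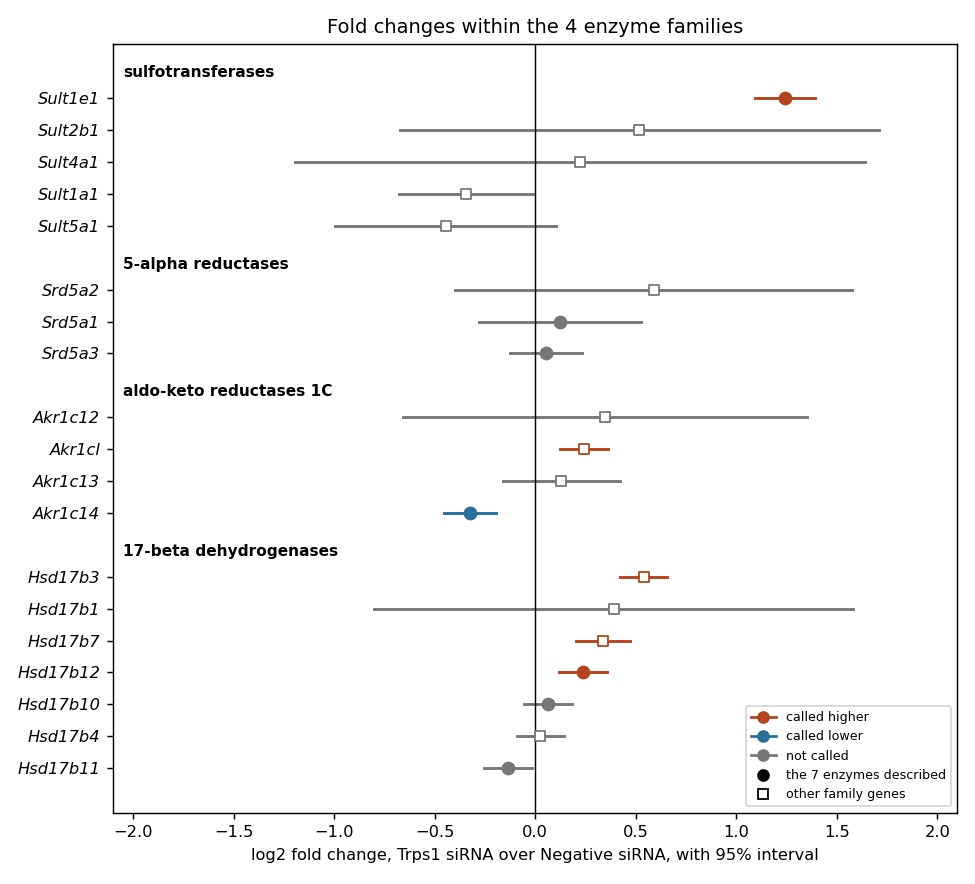
Log2 fold change of every tested gene in the 4 enzyme families, Trps1 siRNA over Negative siRNA, with its 95% interval, filled circles for the 7 enzymes described and open squares for other family genes. Sult1e1 at 1.24 is the only one of the 5 tested sulfotransferases that was called, and Akr1c14 at -0.32 lies opposite Akr1cl at 0.24.

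Hsd17b12 (ENSMUSG00000027195, protein coding, chromosome 2, 94032689 to 94157964, minus strand) encodes the 3-ketoacyl-CoA reductase of fatty acid elongation, which can also reduce estrone and, in the mouse, androstenedione. It had 277 and 275 CPM with Trps1 siRNA, against 231 and 238 CPM with Negative siRNA. The 2 pairs are tight and do not overlap, with means of 276 ± 2.05 and 234 ± 5.26 CPM (SD, n = 2 per group). The log2 fold change was 0.24 ± 0.06 (edgeR adjusted p = 0.00768), with a 95% interval of 1.08-fold to 1.28-fold. The call was lost without sample 1 of Negative siRNA (log2 fold change 0.21, adjusted p = 0.110) and held in the other 11 of 12 alternatives, which began at 0.00142. The authors' deposited table gives 0.23 and an adjusted p of 0.0233.

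Of 12 listed genes of fatty acid elongation, the pathway of Hsd17b12, 8 were tested, with 2 higher, 1 lower and 5 uncalled, and a median log2 fold change of 0.08. Elovl6, which adds carbon units to palmitate, rose 1.36-fold to 109 and 108 CPM with Trps1 siRNA, against 78.7 and 81.1 CPM with Negative siRNA (edgeR adjusted p = 9.37e-06). Of the dehydratases that act after Hsd17b12, Hacd1 rose 1.44-fold (adjusted p = 0.00756, but 0.0969 without sample 1 of Trps1 siRNA, in a range from 0.00140). Hacd2 fell to 87.0% (adjusted p = 0.0203), a call lost with DESeq2 (0.0813) and without sample 2 of Trps1 siRNA (0.0849) or sample 1 (0.0731) or 2 (0.213) of Negative siRNA, in a range from 0.00365. Tecr, the reductase of the final step, had 425 CPM with Trps1 siRNA and 455 CPM with Negative siRNA and did not pass the test.

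Hsd17b11 (ENSMUSG00000029311, chromosome 5, 103989762 to 104021919, minus strand), an enzyme of the lipid droplet surface that can oxidise androstanediol, had 177 and 184 CPM with Trps1 siRNA, against 197 and 200 CPM with Negative siRNA. The groups do not overlap, yet the log2 fold change of -0.14 ± 0.06 did not pass the test (edgeR adjusted p = 0.138, unadjusted p = 0.0254). Its adjusted p lay between 0.0948 and 0.446 in 12 alternatives. The related Hsd17b13, on the same chromosome, had 1 read in all. Of 11 tested genes of the lipid droplet coat and its lipases, 2 were higher, 0 lower and 9 uncalled, with a median log2 fold change of 0.20. Plin1, a perilipin that guards the droplet, rose to 8.51 and 8.83 CPM with Trps1 siRNA against 4.48 and 3.83 CPM with Negative siRNA, by 1.07 on the log2 scale (edgeR adjusted p = 1.22e-04). Plin5 rose 1.58-fold (adjusted p = 0.00645, but 0.0551 without sample 2 of Negative siRNA, in a range from 9.04e-04), and Plin2, a perilipin of most cell types, had 186 CPM with Trps1 siRNA and 194 CPM with Negative siRNA.

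Hsd17b10 (ENSMUSG00000025260, chromosome X, 152001845 to 152004442, plus strand) encodes a mitochondrial dehydrogenase of isoleucine breakdown that is also a subunit of mitochondrial ribonuclease P. It had 178 and 174 CPM with Trps1 siRNA, against 163 and 175 CPM with Negative siRNA, and the groups overlap. The log2 fold change was 0.06 ± 0.06 (edgeR adjusted p = 0.575), with a 95% interval of -0.06 to 0.18. Of 10 tested genes for ribonuclease P and isoleucine breakdown, 4 were higher, 0 lower and 6 uncalled, with a median of 0.18. The 4 that rose act in amino acid breakdown. Acat1, which splits the final product, rose 1.26-fold (adjusted p = 8.23e-04, but 0.0645 without sample 2 of Negative siRNA, in a range from 8.03e-07), and Bcat2, the branched-chain aminotransferase, rose 1.22-fold (adjusted p = 0.00244, at most 0.0317 in the alternatives). Dbt, a subunit of the branched-chain keto acid dehydrogenase, rose 1.22-fold (adjusted p = 0.0119), a call lost with DESeq2 (0.0501) and without sample 2 of Trps1 siRNA (0.136) or sample 1 of Negative siRNA (0.0652), in a range from 0.00182. Echs1, the enoyl-CoA hydratase, rose 1.14-fold (adjusted p = 0.0308), a call lost with DESeq2 (0.0713) and with any of the 4 samples left out (0.0789 to 0.269), in a range from 0.0105. Bcat2 and Echs1 overlap antisense genes in some exon bases (0610005C13Rik and Paox), and it is not stated whether reads were counted by strand, so reads of such pairs cannot be told apart. The ribonuclease P subunits Trmt10c and Prorp had log2 fold changes of 0.09 ± 0.12 and 0.18 ± 0.13.

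**Figure D3:**
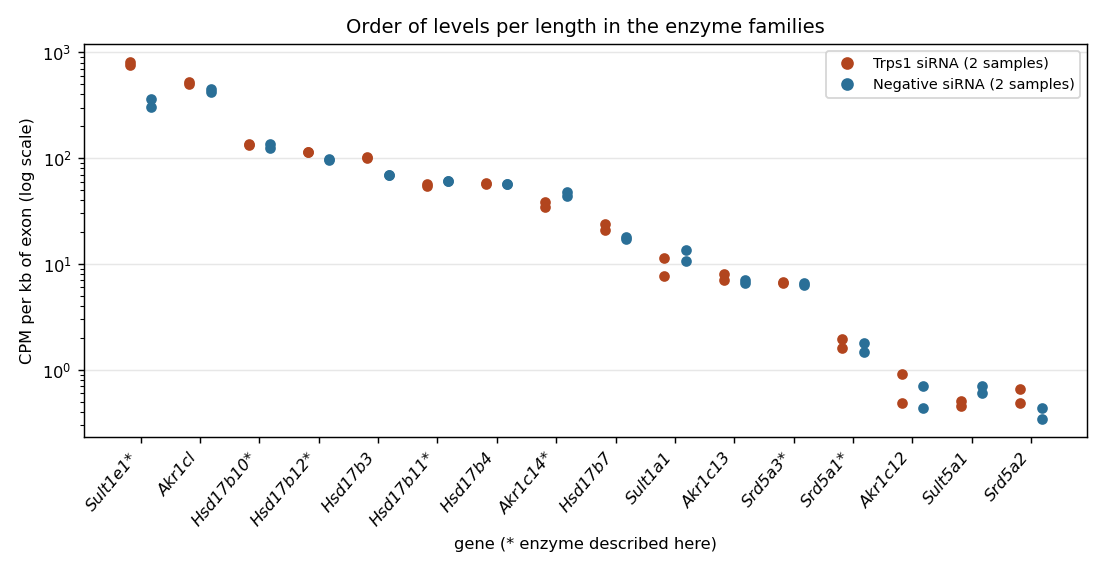
CPM per kilobase of exon on a log axis for the 16 tested genes with the highest level per kilobase of the 4 families, with 2 Trps1 siRNA samples left and 2 Negative siRNA samples right for each gene, and asterisks on the enzymes described. Sult1e1 stood above Akr1cl with Trps1 siRNA (752 and 811 against 528 and 501) and below it with Negative siRNA (302 and 358 against 445 and 425). This order rests on annotated exon lengths of 1242 bases for Sult1e1 and 4209 bases for Akr1cl.

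Levels of different genes can be compared per length. In all 4 samples the order per kilobase was Sult1e1, Hsd17b10, Hsd17b12, Hsd17b11, Akr1c14, Srd5a3, Srd5a1 and Akr1c18. With Trps1 siRNA the means were 781, 136, 115, 55.3, 36.4, 6.70 and 1.77 CPM per kilobase for the 7 tested enzymes in that order, and with Negative siRNA they were 330, 130, 97.4, 60.7, 45.5, 6.44 and 1.64. No neighbours in this order overlapped within a group. Hsd17b10 and Hsd17b12, for example, stood at 137 and 134 and at 115 and 114 CPM per kilobase in the Trps1 siRNA samples. Between an enzyme of the set and another gene of the wider families, the order differed between the groups for 2 pairs. Sult1e1 exceeded Akr1cl per kilobase in both Trps1 siRNA samples, and Akr1cl exceeded Sult1e1 in both Negative siRNA samples. In CPM, without the division by length, Akr1cl was the higher of this pair in all 4 samples. The annotated exon length is 4209 bases for Akr1cl and 1242 bases for Sult1e1. Hsd17b4 had 56.9 and 58.1 CPM per kilobase with Trps1 siRNA, above the 54.1 and 56.4 of Hsd17b11, and 56.5 in both Negative siRNA samples, below the 60.3 and 61.2 of Hsd17b11. Levels per kilobase rest on all annotated exons, so they understate a gene that uses few of them.

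The 17-beta dehydrogenases outside the set that passed the test both rose. Hsd17b3, which makes testosterone in Leydig cells, had 142 and 139 CPM with Trps1 siRNA, against 97.1 and 96.3 CPM with Negative siRNA, and rose 1.45-fold (edgeR adjusted p = 2.74e-07). Hsd17b7, which reduces estrone and also acts in cholesterol synthesis, rose 1.26-fold (adjusted p = 8.06e-04, but 0.0634 without sample 2 of Trps1 siRNA, in a range from 1.14e-07). Hsd17b4, the peroxisomal enzyme, had 196 ± 3.09 CPM with Trps1 siRNA and 192 ± 0.16 CPM with Negative siRNA (SD, n = 2 per group) and did not pass the test. Enzymes of androgen synthesis, which supply the substrate, gave 6 that rose, none that fell and 4 that did not pass the test, of 10 tested, with a median log2 fold change of 0.46. The 4 with the smallest p were Cyp17a1, Hsd3b1, Fdxr and Hsd17b3, at 6.50-fold, 2.67-fold, 1.59-fold and 1.45-fold. Sult1e1, at 2.37-fold, thus rose beside enzymes that make androgens, while Akr1c14, which acts on dihydrotestosterone, fell.

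Other steroid oxidoreductases gave 1 rise, no fall and 12 that did not pass the test, of 13 tested. The rise was Cbr4, a mitochondrial carbonyl reductase (1.28-fold, edgeR adjusted p = 0.0414), and its call was lost with any of the 4 samples left out (0.0720 to 0.204), with no low-count filter (0.0527), with DESeq2 (0.145) and without robust estimation (0.0556), in a range from 0.0265. Hsd11b1 and Hsd11b2, which interconvert active and inactive glucocorticoids, averaged 8.01 and 0.923 CPM with Trps1 siRNA and 9.75 and 0.911 CPM with Negative siRNA, and neither passed the test. Aromatase, Cyp19a1, which makes the estrogens that Sult1e1 sulfates, had 0 reads in all 4 libraries, where a count of 0 allows up to 3 reads per library. Of 6 tested receptor genes, Nr1i2, a xenobiotic and steroid receptor, was called higher at 0.78 CPM in both Trps1 siRNA samples against 0.15 and 0.20 CPM with Negative siRNA, and Nr3c1, the glucocorticoid receptor, was called lower at 83.8% (adjusted p = 0.0330 and 0.0372). The edgeR call of Nr1i2 was lost with any of the 4 samples left out (0.151 to 0.258). That of Nr3c1 was lost without sample 1 (0.108) or 2 (0.131) of Trps1 siRNA, without sample 2 of Negative siRNA (0.462), with DESeq2 (0.135), limma voom (0.0540), library totals (0.0553) and without robust estimation (0.0542), in a range from 0.00856. The estrogen receptor Esr1 had 153 CPM with Trps1 siRNA and 144 CPM with Negative siRNA and did not pass the test.

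**Figure D4:**
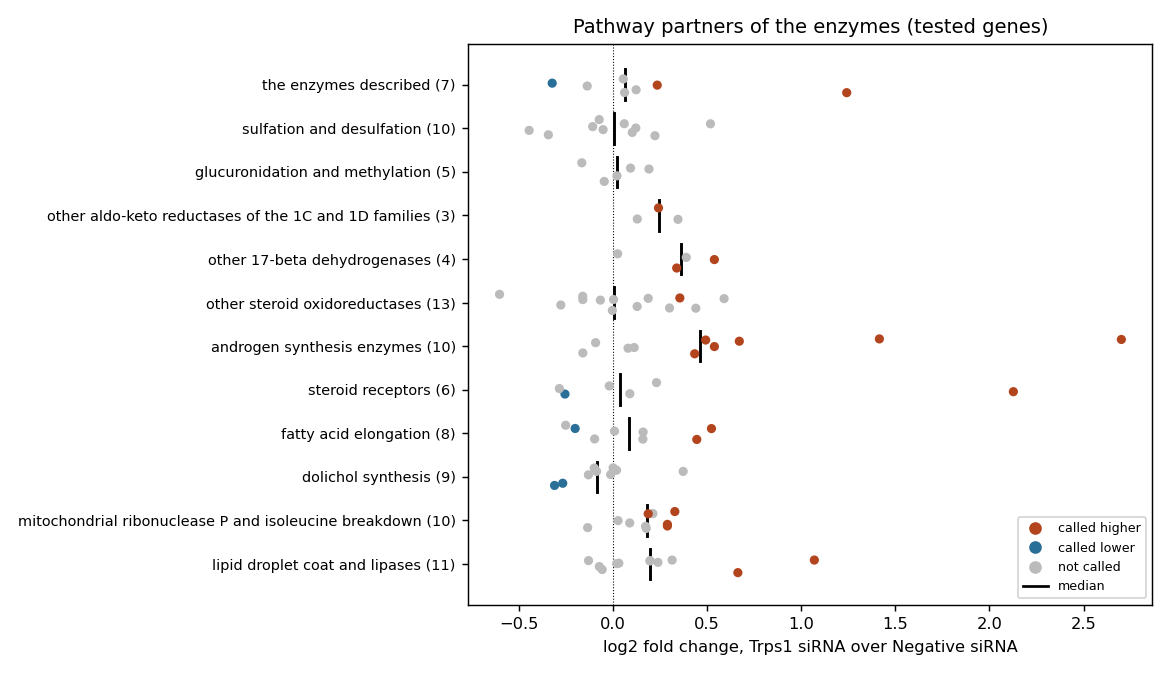
Log2 fold change, Trps1 siRNA over Negative siRNA, of each tested gene in the lists of pathway partners, with the number tested in brackets, a black bar for the median, and colours for genes called higher or lower. Androgen synthesis has the highest median, 0.46, with Cyp17a1 at 2.70, and dolichol synthesis the lowest, -0.09.

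The genes next to the enzymes that changed were compared by position. The nearest tested genes to Sult1e1, Gm5869 at 577554 bases and Prol1 at 725718 bases, did not pass the test. Net1, a guanine nucleotide exchange factor for RhoA that lies 130791 bases from Akr1c14, fell with it, to 97.5 and 111 CPM with Trps1 siRNA against 122 and 137 CPM with Negative siRNA. The log2 difference for Net1 was -0.31 ± 0.07 (edgeR adjusted p = 0.00285, but 0.0766 without sample 2 of Negative siRNA, in a range from 7.86e-07). Beside Hsd17b12, Ttc17 at 142803 bases rose by 0.27 ± 0.07 on the log2 scale (adjusted p = 0.00637) and Alkbh3 at 21882 bases did not pass the test.

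Of 10699 genes averaging 5 CPM or more, the profiles over the 4 samples closest to that of Sult1e1 were those of Espn, an actin-bundling protein, Oxtr, the oxytocin receptor, and Chrna4, a nicotinic receptor subunit. The Euclidean distances of centred log2 CPM were 0.119, 0.137 and 0.186. Oxtr had 88.5 and 85.6 CPM with Trps1 siRNA, against 35.1 and 38.5 CPM with Negative siRNA. For Akr1c14 the closest were Fzd5, a Wnt receptor, and Net1, which is also its neighbour on the chromosome, at distances of 0.0157 and 0.0336. The lower level of Fzd5 did not pass the test (edgeR adjusted p = 0.125). With 4 samples many genes share a profile, and likeness here says no more than that.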

How the data were processed

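Counts per gene came from the authors' deposited table of raw read counts, 1 column per sample. Per the submitters' processing notes, the authors used HISAT2 and featureCounts with GRCm38 (mm10), while versions, strandedness and multi-mapping settings are not given in the sources used. A second deposited table lists 780 genes with mean normalised signal per group, log2 fold changes and p-values from a test the sources do not name. Its means equal counts over DESeq2-type size factors (largest relative difference 4.77e-10). Symbols, positions and exon lengths came from GENCODE M21 on GRCm38, for 55141 of 55812 rows, and promoters from RefSeq on GRCm38.p6.

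edgeR 4.0.16 (R 4.3.3) was run on the deposited counts over all genes, with TMM, filterByExpr (minimum count 10), glmQLFit with robust=TRUE and glmQLFTest, group as the sole term leaving 2 residual degrees of freedom. The calling threshold was 0.05 on p-values adjusted by Benjamini-Hochberg. Library totals of 17844125 to 25852898 limit genes of few reads. Standard errors were derived from the log2 fold change and F. Replicates differed by more than sampling noise (mean chi-square per gene 4.34 with Trps1 siRNA and 7.08 with Negative siRNA). Alternatives used limma 3.58.1, DESeq2 1.42.0, other scalings and filters, a replicate block, and each sample left out. The named genes were the 8 enzymes, up to 4 called genes per list by smallest p, the nearest tested neighbours of called enzymes, and 3 closest profiles for the strongest rise and fall, of which 1 is not reported here. Others, such as Sult1a1, Papss1, Akr1c12, Akr1c13, Srd5a2, Hsd17b4, Ugt1a7c, Tecr, Plin2, Trmt10c, Esr1 and the marker genes Cyp11a1, Star, Insl3, Gata1 and Zbtb16, were chosen after their values were seen. The enzymes and lists were chosen with earlier results of these data known.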

Additional observations from a re-analysis of the deposited data

How the results depend on the processing

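Over all genes 1652 were called, 770 higher and 882 lower. DESeq2 called 991, 438 and 553. With a sample left out the counts ran from 871 to 1675, from 395 to 748 and from 476 to 927, each lowest without sample 2 of Trps1 siRNA. The other alternatives stayed within 1.5 times. Of the enzymes, 3 were called, 2 of them higher, and without sample 1 of Negative siRNA only 1 was called higher, since Hsd17b12 missed the threshold there, which left 2 to 3 called and 1 to 2 higher over the fits with a sample left out. Sult1e1 (log2 fold change 1.12 to 1.37) and Akr1c14 (-0.41 to -0.25) were called in all 12 alternatives. Values that changed sign were never called: with a sample left out Srd5a1 ran from -0.0358 (without sample 2 of Trps1 siRNA; -0.0136 without sample 2 of Negative siRNA) to 0.254, and Prol1 from -0.163 (without sample 1 of Trps1 siRNA; -0.056 without sample 1 of Negative siRNA) to 0.66. Insl3 ran from -0.0358 (without sample 1 of Negative siRNA) to 0.0715. The cause was not tested. The replicate numbers are shared by both groups, but the labels do not say that they mark a pairing, and same-numbered samples deviated together with a correlation of 0.07 across 10763 genes. With the number as a block, 2285 genes were called (1073 higher, 1212 lower), and the enzymes called stayed at 3. Scaling by library totals in place of TMM shifted the median log2 fold change by 0.01. Depth limited Srd5a1, with about 100 reads a library, and Akr1c18, with 2 reads in all.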
